A study of Mus musculus with 7 samples.

Results

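Kupffer cells are macrophages that reside in the liver, and 10 genes by which they are commonly recognised were followed here, namely Vsig4, Timd4, Adgre1, Folr2, Cdh5, Sdc3, Cd5l, Pcolce2, Il18bp and Fabp7. They were taken by symbol, without lectins and transcription factors, and all 10 were found among the 10550 gene symbols of the deposited count table. The set is described as surface and secreted, which holds for 9 of the 10 as background knowledge, since Fabp7 encodes a fatty acid-binding protein of the cytosol. Kupffer cells sorted from untreated livers of 8-week-old male C57BL/6 mice were profiled by a bulk form of MARS-Seq, in which the 3′ end of each mRNA molecule is tagged with a unique molecular identifier (UMI). Controls were 4 libraries from Commd10fl/fl mice, which carry floxed Commd10 alleles and are described as littermates without the Cre cross. The 3 Commd10-deficient libraries came from mice labelled Clec4FDCommd10, in which the same floxed alleles were combined with Cre at the Clec4f locus, an allele (Clec4f+/cre) that the controls did not carry. Cre at this locus is meant to act in Kupffer cells, and any effect of Cre or of the altered Clec4f allele cannot be told apart from that of Commd10 loss.

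Kupffer cells sit in the liver sinusoids and clear particles, bacteria, ageing red cells and apoptotic cells from portal blood. Their identity programme is laid down by signals from neighbouring endothelial, stellate and parenchymal cells. Among its products are phagocytic receptors such as VSIG4 and TIM4, and secreted proteins such as CD5L. TIM4 is known as a marker of long-resident Kupffer cells, which monocyte-derived cells acquire late. VSIG4, TIM4 and F4/80 (the product of Adgre1) also belonged to the antibody definition used for sorting, so the presence of Vsig4, Timd4 and Adgre1 in every library was set by the gate and is no finding.

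Sample titles divide the controls into control set 1, which holds replicates 1 and 2, and control set 2, which holds replicates 3 and 4. Library totals were 4270240 and 3207144 counts for control set 1, 230942 and 267553 counts for control set 2, and 116458, 105462 and 124016 counts for Commd10-deficient replicates 1 to 3. Levels are given as CPM, counts scaled to a common library total, on which a floor of 3 counts lies between 0.657 and 28.0 CPM. Depth and control set go together and cannot be told apart. Every Commd10-deficient library was also shallower than every control, so depth cannot be told apart from genotype either. Nothing states that each library is a separate animal, so the p-values cover only the spread among libraries, which may be technical. Commd10 itself was counted 167, 130, 7 and 1 times in control replicates 1 to 4 and 0, 4 and 2 times in the Commd10-deficient replicates, which at this depth does not check the genotype labels, and a 3′ tag outside the deleted exons would be counted in any case. The macrophage label held in all libraries: 10 of 10 pan-macrophage markers were listed, with a summed level of 54620 to 61190 CPM among controls versus 59920 to 65250 CPM in Commd10-deficient cells. Among these markers Tyrobp fell against all controls in edgeR, DESeq2 and limma-voom. C1qc rose in DESeq2 and limma-voom, and was at 0.72 on the log2 scale in edgeR (adjusted p = 0.0562). The summed level of 14 endothelial markers was 808 to 1073 CPM among controls versus 785 to 849 CPM in Commd10-deficient cells. Kdr was at 0 in all Commd10-deficient libraries and also in both libraries of control set 2. The sum of 12 hepatocyte markers was 5184 and 4548 CPM for control set 1, 9352 and 9003 CPM for control set 2, and 7279, 7240 and 6767 CPM for Commd10-deficient replicates 1 to 3, so it was higher in control set 2, as Timd4 was, while Folr2, Cdh5 and Fabp7 were lower there. The part of hepatocyte RNA in those differences was not tested. Serpina3k rose against all controls in edgeR and DESeq2, and Mup3 in DESeq2 and limma-voom. With the control sets kept apart in edgeR, other hepatocyte markers passed as lower against control set 2, namely Apoa1 (-1.55), Apoa2 (-1.37), Ttr (-1.265) and Fabp1 (-1.17). Serpina3k passed as higher there (1.37). Against control set 1, Alb, Apoa1, Serpina3k and Mup3 passed as higher and none as lower. Of all tested genes 19.1% passed against control set 2 and 19.3% against control set 1. Of 8 monocyte markers 7 were listed, summing to 238 to 974.6 versus 318 to 583 CPM, and of 9 T, NK and B cell markers 3 were listed, summing to 65.3 to 106 versus 28.0 to 97.0 CPM. The transcripts Ly6g and Ly6c1, whose products the gate selects against, are not among the listed genes. Ly6c2, also a sort gate gene, was listed, with 8, 5, 1 and 0 counts in control replicates 1 to 4 and 4, 0 and 2 in Commd10-deficient replicates 1 to 3. That is 1.96 ± 1.96 CPM among controls versus 16.8 ± 17.2 CPM (SD), from counts too low to be tested.

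Together the 10 genes took 2.55% and 2.36% of all counts in control set 1 and 1.88% and 1.89% in control set 2, while Commd10-deficient replicates 1 to 3 gave 2.27%, 2.28% and 2.29%. The widest exact binomial 95% interval, that of Commd10-deficient replicate 2, ran from 2.20% to 2.38% and covers counting error only. The Commd10-deficient libraries therefore lay between the control sets in the share of RNA given to these transcripts. Cd5l alone made up about as much as the other 9 genes combined or more, which summed to 1.28% in each library of control set 1, 0.812% and 0.848% for control set 2, and 1.09%, 1.16% and 0.972% for Commd10-deficient replicates 1 to 3. Because each molecule gives a single 3′ tag, CPM here is not divided by transcript length.

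**Figure D1:**
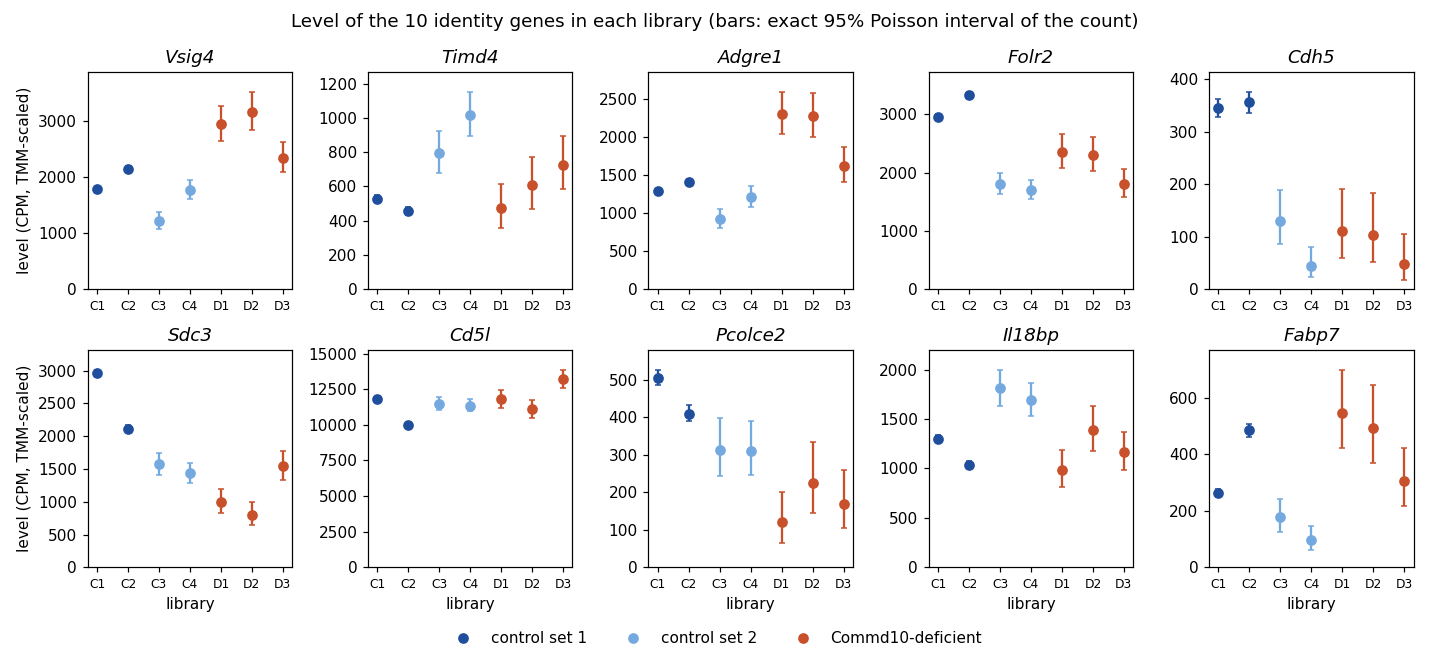
Level of each of the 10 genes (CPM scaled with TMM factors, linear axis from 0) in control replicates 1 to 4 (C1 to C4) and Commd10-deficient replicates 1 to 3 (D1 to D3), where bars are exact 95% Poisson intervals of the count. Vsig4, Adgre1 and Pcolce2 separate the Commd10-deficient libraries from all controls, Cdh5, Folr2 and Fabp7 are lower in control set 2 than in control set 1, and Cd5l stays between 9958 and 13230 CPM.

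Of the 10 genes, 0 passed an adjusted p under 0.05 when Commd10-deficient cells were compared with all 4 controls by edgeR's quasi-likelihood test, where 6.04% of the 3412 tested genes passed. An unadjusted p under 0.05 was reached by 5 of the 10, and by 825 of the 3412 tested genes. DESeq2 called 2 of the 10 (Adgre1 higher, Pcolce2 lower) and limma-voom called 0. Over all 3412 tested genes DESeq2 called 372 and limma-voom 200. All 10 passed the filter on low counts. Their median log2 fold change was -0.20, with 4 positive and 6 negative values, beside -0.05 over all tested genes. The groups did not overlap for 3 of the 10 (Vsig4, Adgre1 and Pcolce2), close to the 25% of tested genes without overlap. When the control sets were kept apart in a model with 3 levels, 3 of the 10 passed against control set 1 (background 19.3%) and 4 of the 10 against control set 2 (background 19.1%). The control sets themselves, which share a genotype, differed in 4 of the 10 (background 18.7%). The comparisons with each control set share the Commd10-deficient libraries and are not independent of each other.

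Among the surface receptors, Vsig4 and Adgre1 stood higher in every Commd10-deficient library than in any control. Vsig4 encodes the complement receptor CRIg, which binds C3 fragments and captures blood-borne bacteria (chromosome X, 96247203 to 96293438, minus strand, mm10). Its level was 1796, 2149, 1218 and 1771 CPM in control replicates 1 to 4 and 2949, 3176 and 2353 CPM in Commd10-deficient replicates 1 to 3. No library overlapped, the lowest Commd10-deficient value lying above the highest control. The mean was 1734 ± 385 CPM among controls (SD, n = 4) and 2826 ± 425 CPM in Commd10-deficient cells (SD, n = 3), a 1.63-fold difference (log2 0.70, SE 0.26, 95% interval 0.15 to 1.25, adjusted p = 0.111). Vsig4 rose 1.89-fold against control set 2 (log2 0.92, adjusted p = 0.0111), and its log2 fold change against control set 1 was 0.52 (adjusted p = 0.108). The direction was thus the same against both control sets, and the sets were not shown to differ from each other (-0.40, adjusted p = 0.251). In bulk RNA, a change in the number of cells of a type and a change in RNA per cell cannot be told apart. The rise over control set 2 was lost without control replicate 3 (adjusted p = 0.137) and without Commd10-deficient replicate 1 or 2 (0.0674 and 0.0751). Where a single library of a control set remained, it was assumed to vary like the others.

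Adgre1, which encodes the adhesion receptor F4/80 (chromosome 17, 57358691 to 57483527, plus strand), showed the same separation of libraries. Control replicates 1 to 4 held 1292, 1405, 924 and 1211 CPM, and Commd10-deficient replicates 1 to 3 held 2306, 2279 and 1625 CPM. Again the groups did not overlap, and control replicate 3 was the lowest and Commd10-deficient replicate 3 the lowest of its group. The means were 1208 ± 206 CPM (SD, n = 4) and 2070 ± 386 CPM (SD, n = 3), a 1.71-fold difference (log2 0.77, SE 0.26, 95% interval 0.23 to 1.32, adjusted p = 0.0788). Against control set 2 Adgre1 rose 1.94-fold (log2 0.95, adjusted p = 0.00909). Against control set 1 it was at 0.62 on the log2 scale, short of the threshold in edgeR (adjusted p = 0.0571) but past it in DESeq2 (0.0424), in limma-voom (0.0268) and in edgeR without Commd10-deficient replicate 3 (0.0200). Leaving out control replicate 3 ended the call against control set 2 (adjusted p = 0.107), as did leaving out Commd10-deficient replicate 1 (0.0674) or 2 (0.0653).

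Within libraries the counts of Vsig4 and Adgre1 kept nearly the same proportion, a ratio that needs no scaling between libraries. The ratio of Vsig4 to Adgre1 was 1.39, 1.53, 1.32 and 1.46 in control replicates 1 to 4 and 1.28, 1.39 and 1.45 in Commd10-deficient replicates 1 to 3, so the groups overlapped. The ratio to Timd4, the remaining gate gene of the set, varied far more. Vsig4 to Timd4 was 3.40 and 4.73 for control set 1, 1.54 and 1.74 for control set 2, and 6.25, 5.23 and 3.23 for Commd10-deficient replicates 1 to 3. These ratios were chosen after the values were seen and are given without a test. Another sort gate gene outside the set, Ptprc (the leukocyte antigen CD45), was at 197 ± 48.8 CPM among controls versus 369 ± 69.2 CPM in Commd10-deficient cells (log2 0.88, adjusted p = 0.0878), while Clec4f was at -0.08 and Clec1b at 0.14. Itgam, which encodes CD11b, was counted too sparsely to be tested.

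Timd4 encodes TIM4, a phosphatidylserine receptor that tethers apoptotic cells (chromosome 11, 46810800 to 46844332, plus strand). It was measured at 528 and 455 CPM in control set 1, at 793 and 1018 CPM in control set 2, and at 472, 607 and 728 CPM in Commd10-deficient replicates 1 to 3. The Commd10-deficient libraries lay inside the range of the controls, and the highest values belonged to control set 2. Over all controls the log2 fold change was -0.20 (SE 0.32, 95% interval -0.89 to 0.49, adjusted p = 0.738), with the sign depending on the control set, at 0.29 against control set 1 and -0.59 against control set 2 (adjusted p = 0.0924). Without Commd10-deficient replicate 3 Timd4 fell against control set 2 (-0.79, adjusted p = 0.0432). Between the control sets Timd4 was 1.85-fold higher in control set 2 (log2 0.88, adjusted p = 0.0223), a call lost without control replicate 2 (adjusted p = 0.0891), 3 (0.0545) or 4 (0.206) and with no filter on low counts (0.0650).

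Promoter sequence was inspected for the 8 of 10 genes with an entry in RefSeq's promoter table (GRCm38.p6), 9 windows of 250 bases directly before the annotated start, since Folr2 has a pair of starts. Adgre1 and Cdh5 had no entry. The letters searched on both strands were GAGGAA, the core bound by the macrophage factor PU.1, TGGGAA, the core bound by the Notch effector RBPJ, and AGGTCA, the core element of LXR and other nuclear receptors. These factors are known to shape Kupffer cell identity, and the first pair of motifs end in the same bases. The PU.1 core GAGGAA was present in 23.3% of the 32851 windows of all genes, TGGGAA in 21.6% and AGGTCA in 14.0%. The windows of Vsig4, a receptor that rose over control set 2, of Cd5l, the gene with the smallest spread, and of Pcolce2, which fell against each control set, are shown with matches in capitals. The Vsig4 window (chrX:96293439-96293688, minus strand) held 2 copies of GAGGAA and the Cd5l window (chr3:87357631-87357880, plus strand) 1 copy, read there on the opposite strand as TTCCTC. The Pcolce2 window (chr9:95637378-95637627, plus strand) held 0 of the 3 motifs, and no match overlapped another in these windows.
Vsig4: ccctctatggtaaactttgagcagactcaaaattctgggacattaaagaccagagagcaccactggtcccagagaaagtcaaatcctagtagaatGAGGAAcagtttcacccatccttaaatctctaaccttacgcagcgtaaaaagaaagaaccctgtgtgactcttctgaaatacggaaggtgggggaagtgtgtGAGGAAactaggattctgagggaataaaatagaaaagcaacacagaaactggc
Cd5l: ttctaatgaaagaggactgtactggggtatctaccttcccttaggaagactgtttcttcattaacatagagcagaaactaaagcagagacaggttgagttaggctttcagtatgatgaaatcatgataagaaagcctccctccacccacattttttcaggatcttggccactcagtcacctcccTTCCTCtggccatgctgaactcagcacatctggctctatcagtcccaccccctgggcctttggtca
Pcolce2: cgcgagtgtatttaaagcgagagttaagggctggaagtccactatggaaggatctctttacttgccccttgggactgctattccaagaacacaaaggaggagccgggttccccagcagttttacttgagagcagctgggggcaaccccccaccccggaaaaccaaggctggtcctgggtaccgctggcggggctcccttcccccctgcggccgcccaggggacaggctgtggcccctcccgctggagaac

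Timd4 and Fabp7 each held 1 copy of AGGTCA, Fabp7 also 1 of TGGGAA, and the windows of Folr2, Sdc3 and Il18bp held none of the 3. A match describes letters only, and binding was not measured.

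Folr2 and Sdc3, receptors that were not part of the gate, had their highest levels in control set 1. Folr2 encodes folate receptor beta, a surface marker of resident macrophages (chromosome 7, 101839988 to 101857194, minus strand), and lies 157690 bases from Il18bp on the same chromosome. Its level was 2961 and 3327 CPM in control set 1, 1806 and 1706 CPM in control set 2, and 2358, 2307 and 1803 CPM in Commd10-deficient cells. The Commd10-deficient values lay between the control sets, except replicate 3, which was level with control set 2. The log2 fold change was -0.19 against all controls (SE 0.29, 95% interval -0.81 to 0.43, adjusted p = 0.730), -0.54 against control set 1 (adjusted p = 0.0588) and 0.30 against control set 2 (adjusted p = 0.315). Against control set 1 Folr2 passed as lower in DESeq2 (adjusted p = 0.0337), in limma-voom (0.0197), with no filter on low counts (0.00113) and without control replicate 1 (0.0430). Folr2 was lower in control set 2 than in control set 1 by a factor of 0.558 (log2 -0.84, adjusted p = 0.0129), a call lost without control replicate 3 (0.0645) or 4 (0.109). Set against Vsig4 in the same library, Folr2 had a count ratio of 1.65, 1.55, 1.48 and 0.963 in control replicates 1 to 4 and of 0.799, 0.726 and 0.766 in the Commd10-deficient libraries. That ratio, picked after the values were seen and not tested, did not overlap between groups, with control replicate 4 nearest to the Commd10-deficient libraries.

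**Figure D2:**
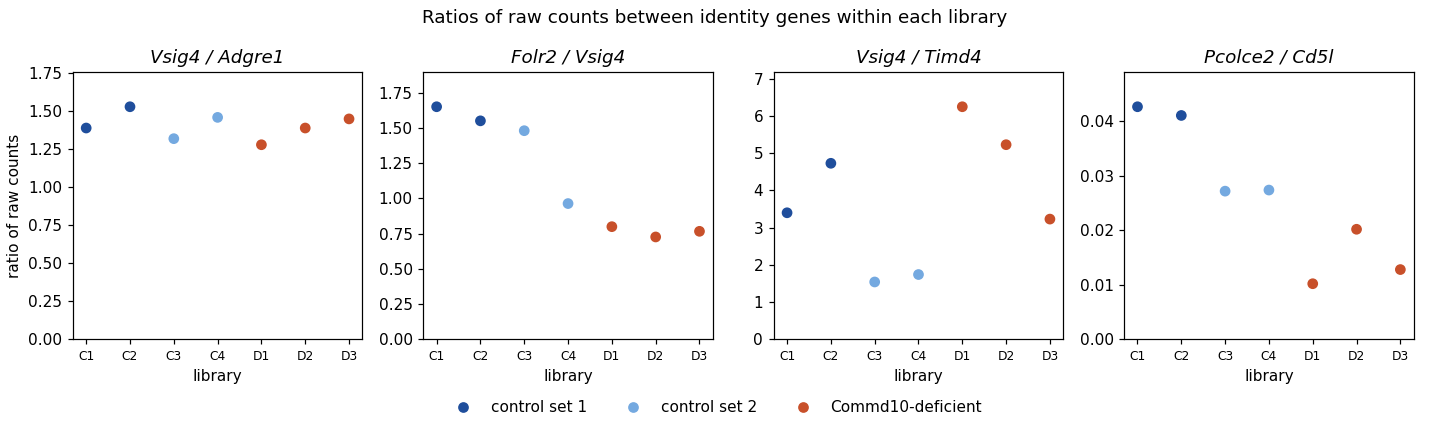
Ratio of raw counts between gene pairs within each library (linear axes from 0), for control replicates 1 to 4 (C1 to C4) and Commd10-deficient replicates 1 to 3 (D1 to D3). Vsig4 to Adgre1 stays between 1.28 and 1.53 in all 7 libraries, Folr2 to Vsig4 lies at 0.726 to 0.799 in Commd10-deficient cells and at 0.963 to 1.65 in controls, Vsig4 to Timd4 is lowest in control set 2, and Pcolce2 to Cd5l is lower in every Commd10-deficient library than in any control.

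Sdc3 encodes the heparan sulphate proteoglycan syndecan-3 (chromosome 4, 130792537 to 130826319, plus strand). Control replicates 1 to 4 held 2964, 2114, 1573 and 1436 CPM, and Commd10-deficient replicates 1 to 3 held 995, 803 and 1544 CPM. Commd10-deficient replicate 3 lay among the libraries of control set 2 and made the groups overlap, and the other Commd10-deficient libraries lay below every control. The means were 2022 ± 693 CPM (SD, n = 4) and 1114 ± 385 CPM (SD, n = 3), with a log2 fold change of -0.86 (SE 0.32, 95% interval -1.55 to -0.17, adjusted p = 0.119). Sdc3 fell to 0.440 of its level in control set 1 (log2 -1.18, adjusted p = 0.00341), a call kept with every library left out in turn. Against control set 2 it was at -0.43 (adjusted p = 0.242), but without Commd10-deficient replicate 3 Sdc3 fell against that set too (-0.78, adjusted p = 0.0302), and without replicate 2 it was at -0.26. The control sets were at -0.76 (adjusted p = 0.0606), a difference that passed without control replicate 2 (0.0175), without Commd10-deficient replicate 3 (0.0279) and with no filter on low counts (0.00367). Exons of the annotated genes Gm12970 and Gm26716 overlap those of Sdc3 on the opposite strand, as Gm10602 does for Folr2, and the use of strand in counting is not given, so those counts are uncertain to that extent.

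Cdh5 encodes VE-cadherin, the adhesion molecule of endothelial junctions, which mouse Kupffer cells also transcribe (chromosome 8, 104101625 to 104144511, plus strand). Its level was 344 and 356 CPM in control set 1 but 131 and 45.0 CPM in control set 2, and 111, 103 and 48.5 CPM in Commd10-deficient replicates 1 to 3. The Commd10-deficient libraries thus lay within the range of control set 2 and below control set 1. Counts were low, at 28 and 11 in control set 2 and 13, 11 and 6 in Commd10-deficient cells, with exact Poisson intervals of 22.5 to 80.5 CPM for control replicate 4 and 17.8 to 106 CPM for Commd10-deficient replicate 3. Against all controls the log2 fold change was -1.39 (SE 0.61, 95% interval -2.72 to -0.07, adjusted p = 0.181). Cdh5 fell to 0.248 of its level in control set 1 (log2 -2.01, adjusted p = 0.00161), while against control set 2 it was at 0.01 (95% interval -0.96 to 0.98, adjusted p = 0.993). That value rested on control libraries far apart from each other, and was 0.96 without control replicate 3 and -0.59 without control replicate 4, with adjusted p-values of 0.251 and 0.403. Between the control sets the gene was lower in control set 2 by a factor of 0.247 (log2 -2.02, adjusted p = 0.00350), which was -2.995 without control replicate 3 (adjusted p = 0.00451) and -1.44 without control replicate 4 (adjusted p = 0.0568).

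The summed level of the 14 endothelial markers, which do not include Cdh5, was not lower in control set 2. It was 929 and 808 CPM in control set 1, 1073 and 1059 CPM for control set 2, and 789, 785 and 849 CPM in Commd10-deficient cells, the lowest control value lying within the Commd10-deficient range. Of the 14 markers 5 were tested and 0 were called by edgeR, DESeq2 or limma-voom against all controls, with Pecam1 at -1.07 (adjusted p = 0.185, the only 1 with an unadjusted p under 0.05) and Stab2 at 0.08. With the control sets kept apart in edgeR, Eng (-1.11, adjusted p = 0.0472) and Gpihbp1 (-1.46, 0.0233) were lower against control set 2, where 19.1% of all tested genes passed. Against control set 1 they were at 0.47 and -0.16, and no tested marker passed. Kdr, a defining endothelial receptor, had 85 and 55 counts in control set 1 and 0 in each of the other 5 libraries. The part of endothelial RNA in the values of Cdh5 was not tested.

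Cd5l, also called AIM, encodes a scavenger receptor-like protein that macrophages secrete and that protects them from apoptosis (chromosome 3, 87357881 to 87371073, plus strand). It ranked between 3rd and 7th among all listed genes by count in each of the 7 libraries. Control replicates 1 to 4 held 11850, 9958, 11480 and 11360 CPM, and Commd10-deficient replicates 1 to 3 held 11820, 11120 and 13230 CPM. The groups overlapped and the widest gap between libraries was 1.33-fold, the smallest among the 10 genes. The log2 fold change was 0.11 (SE 0.21), with a 95% interval of -0.35 to 0.57 against all controls, -0.22 to 0.51 against control set 1 and -0.28 to 0.44 against control set 2. Its biological coefficient of variation in edgeR, 0.247, was lower than that of all but 0.879% of tested genes, whereas that of Cdh5 (0.492) exceeded 95.5% of them and that of Fabp7 (0.408) 86.8%.

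Pcolce2 fell against each control set when all 7 libraries were used, as no other gene of the set did. It encodes a secreted glycoprotein that speeds removal of the C-terminal propeptide of fibrillar procollagens (chromosome 9, 95637601 to 95698096, plus strand). Counts were 2308, 1429, 67 and 76 in control replicates 1 to 4 and 14, 24 and 21 in Commd10-deficient replicates 1 to 3. These correspond to 505, 410, 313 and 311 CPM in the controls and to 120, 224 and 170 CPM in Commd10-deficient cells. Every Commd10-deficient library lay below every control, the nearest being Commd10-deficient replicate 2 and control replicate 4. The means were 385 ± 92.8 CPM (SD, n = 4) and 171 ± 52.1 CPM (SD, n = 3), a ratio of 0.440 (log2 -1.18, SE 0.33, 95% interval -1.89 to -0.47). With an adjusted p of 0.05004 in edgeR it just missed the threshold of 0.05 against all controls, and it passed in DESeq2 (0.0167).

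Against each control set in turn, Pcolce2 fell to 0.373 of its level in control set 1 (log2 -1.42, adjusted p = 0.00206) and to 0.547 of its level in control set 2 (log2 -0.87, adjusted p = 0.0494). The direction was the same against both, and the control sets themselves were at -0.55 (adjusted p = 0.172). The call against control set 1 was kept with each library left out in turn, and that against control set 2 was lost without control replicate 3 or 4 (adjusted p = 0.146 and 0.135), without Commd10-deficient replicate 1, 2 or 3 (0.171, 0.0616 and 0.0781), with RLE scaling (0.0511) and in limma-voom (0.123). Its count relative to Cd5l, in a ratio picked afterwards, was 0.0427, 0.0411, 0.0272 and 0.0274 in control replicates 1 to 4 and 0.0102, 0.0202 and 0.0128 in Commd10-deficient replicates 1 to 3. Fibroblasts also express Pcolce2, and of 10 stellate cell and fibroblast markers only 4 were listed, summing to 0 to 15.8 CPM among controls versus 8.09 to 17.2 CPM in Commd10-deficient cells. None of them was tested, for low counts, Lrat was at 0 in the 5 shallow libraries, and the part of such cells in the values of Pcolce2 was not tested.

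**Figure D3:**
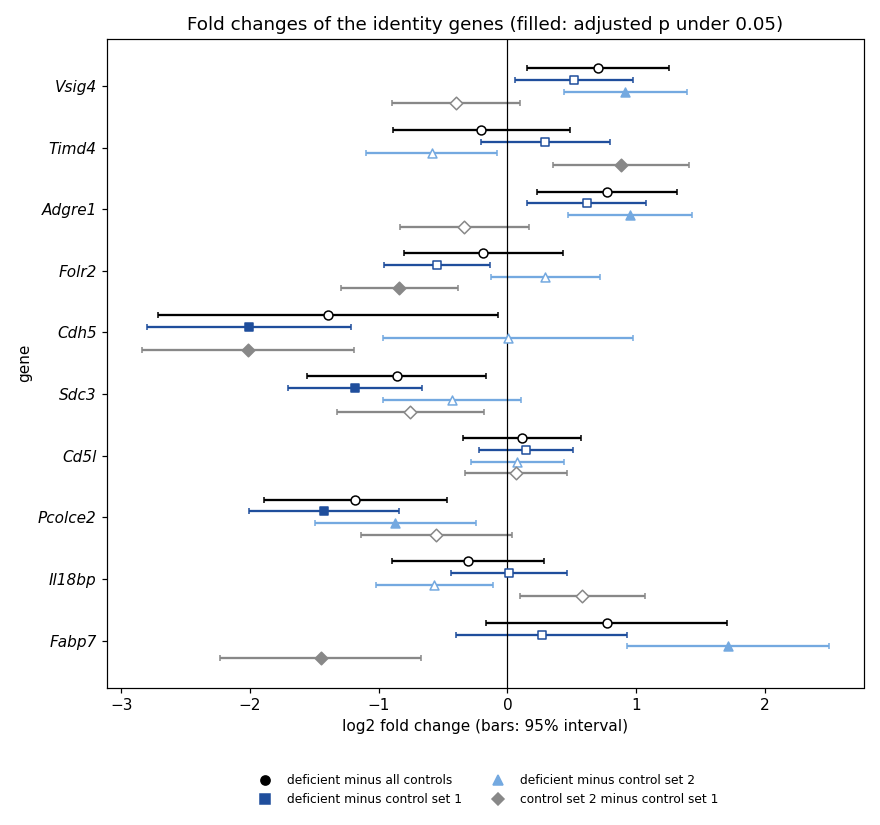
Log2 fold change of the 10 genes with 95% intervals in 4 contrasts, Commd10-deficient minus all controls, minus control set 1 and minus control set 2, and control set 2 minus control set 1, where filled symbols have an adjusted p under 0.05. Pcolce2 is filled against both control sets, Vsig4, Adgre1 and Fabp7 against control set 2, and Cdh5 and Sdc3 against control set 1.

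Il18bp encodes the secreted decoy that binds interleukin-18 (chromosome 7, 102014885 to 102018690, minus strand). It stood at 1301 and 1038 CPM in control set 1, at 1811 and 1689 CPM in control set 2, and at 986, 1392 and 1164 CPM in Commd10-deficient cells. The Commd10-deficient libraries spread around control set 1 and lay below control set 2. The log2 fold change was -0.30 against all controls (SE 0.28, 95% interval -0.89 to 0.29, adjusted p = 0.542), 0.01 against control set 1 and -0.57 against control set 2 (adjusted p = 0.0733). The last of these passed as lower without control replicate 1 (adjusted p = 0.0388) or 2 (0.0410) and with no filter on low counts (0.0306), and the higher level in control set 2 than in control set 1 (0.58, adjusted p = 0.0862) passed in limma-voom (0.0364). Its exons overlap Numa1 on the opposite strand. Il18 itself, the cytokine that the decoy neutralises, was at 105 ± 65.2 CPM among controls versus 99.0 ± 38.2 CPM in Commd10-deficient cells (log2 -0.17, adjusted p = 0.869).

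Fabp7, which encodes an intracellular carrier of polyunsaturated fatty acids best known from glia and also used as a Kupffer cell marker (chromosome 10, 57784881 to 57788450, plus strand), stood apart from control set 2. Its level was 262 and 486 CPM in control set 1, 177 and 98.2 CPM in control set 2, and 549, 495 and 307 CPM in Commd10-deficient replicates 1 to 3. The Commd10-deficient libraries overlapped control set 1 and all lay above control set 2. Against all controls Fabp7 was at 0.77 on the log2 scale (SE 0.44, 95% interval -0.16 to 1.71, adjusted p = 0.300). It rose 3.28-fold over control set 2 (log2 1.72, adjusted p = 0.00517) and was at 0.27 against control set 1 (adjusted p = 0.608). The size of the difference therefore varied with the control set used. Control set 2 in turn lay at 0.366 of control set 1 (log2 -1.45, adjusted p = 0.0125). The rise over control set 2 was lost without control replicate 4 (adjusted p = 0.0817), without Commd10-deficient replicate 1 (0.0527) or 2 (0.0512) and in limma-voom (0.123). The difference between the control sets was lost without control replicate 2 (0.0793) or 4 (0.161) and in limma-voom (0.0881).

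Commd10-deficient replicate 3 held the lowest Commd10-deficient level of Vsig4, Adgre1, Folr2, Cdh5 and Fabp7 and the highest of Timd4, Sdc3 and Cd5l. Without it the log2 fold change against all controls was 0.79 for Vsig4, 0.89 for Adgre1 and -1.20 for Sdc3. Over counts of all genes, Commd10-deficient replicates 1 and 2 were the nearest pair, with a chi-square of 1.54 per degree of freedom, and replicate 3 was at 2.53 and 2.49 from them, so no pair agreed within sampling noise.

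Other identity genes of Kupffer cells were also mixed in direction. Of 20 such genes outside the set, all tested, 0 rose and 2 fell against all controls in edgeR, with 8 at an unadjusted p under 0.05. Over all 3412 tested genes 206 passed, with 825 at an unadjusted p under 0.05. DESeq2 called the same 2 lower and 2 higher (Cd163 and Slc40a1), and limma-voom the same 2 lower. The list had 9 positive and 11 negative log2 fold changes and a median of -0.07. Apoc1, an apolipoprotein, fell from 7226 ± 699 to 2002 ± 745 CPM (log2 -1.85, SE 0.28, adjusted p = 0.00789), and on the log2 scale fell by 1.76 against control set 1 and by 1.93 against control set 2. Marco, a scavenger receptor, also fell (-1.78, adjusted p = 0.0164). The next by p were Cd163, the haemoglobin-haptoglobin receptor, at 1.09 (adjusted p = 0.0626), and Slc40a1, the iron exporter ferroportin, at 1.99 (0.0674). In edgeR Cd163 rose by 1.765 on the log2 scale against control set 1 (adjusted p = 5.1e-05) and was at 0.61 against control set 2 (0.0561). Slc40a1 rose by 3.44 against control set 1 (0.0145) and was at 1.25 against control set 2 (0.192). The log2 values of Apoc1 and Marco lay below those of Pcolce2 (-1.18) and Cdh5 (-1.39).

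**Figure D4:**
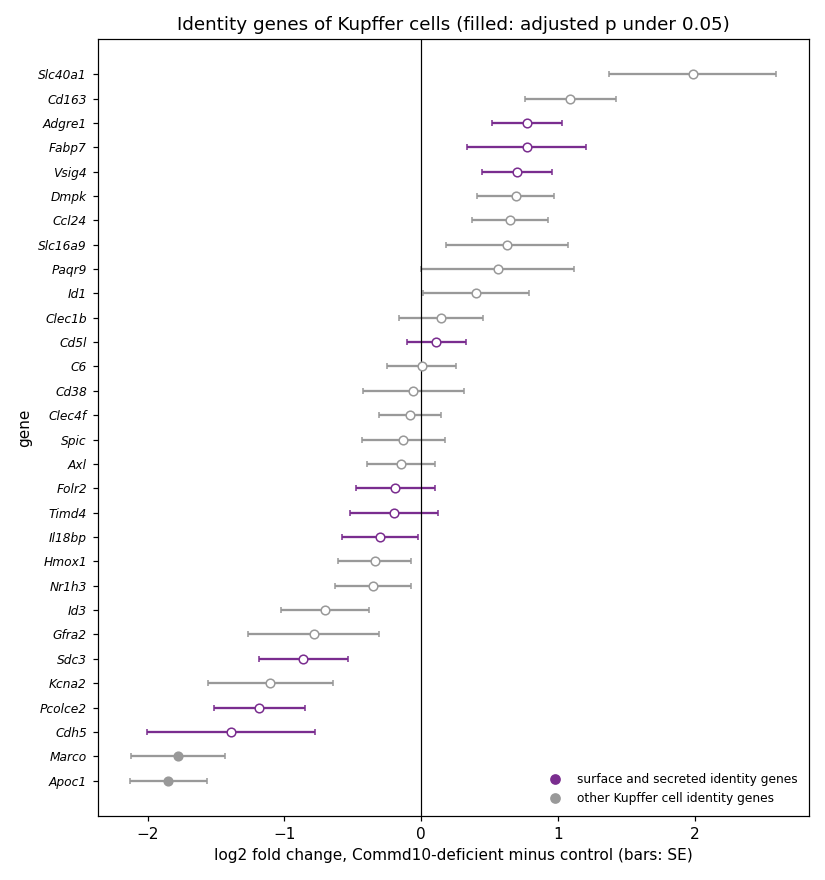
Log2 fold change (Commd10-deficient minus all controls, bars are SE) of the 10 surface and secreted identity genes in purple and 20 other Kupffer cell identity genes in grey, in order of size, with filled symbols for an adjusted p under 0.05. Apoc1 and Marco are the filled genes, and the 10 genes spread from -1.39 (Cdh5) to 0.77 (Adgre1) on both sides of 0.

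Ligands, partners and relatives of the 10 proteins gave few testable transcripts. Of 30 such genes 22 were listed and 8 tested, and 0 passed against all controls in edgeR. An unadjusted p under 0.05 was reached by 2 of the 8 (C3 and Cd36), close to the share over all genes (825 of 3412). DESeq2 called both, and limma-voom called Cd36. Their median log2 fold change was 0.07. C3, the source of the fragments that VSIG4 binds, was at 284 ± 130 CPM among controls versus 109 ± 10.7 CPM in Commd10-deficient cells (log2 -1.34, adjusted p = 0.0599). On the log2 scale it fell by 1.81 against control set 2 (adjusted p = 0.00145) and was at -0.75 against control set 1 (0.0992). Cd36, a fatty acid translocase and the receptor through which CD5L enters adipocytes, was at 24.5 ± 21.8 and 104 ± 37.6 CPM (log2 2.55, adjusted p = 0.0656). It rose by 3.58 on the log2 scale against control set 1 (adjusted p = 0.00146) and was at 1.34 against control set 2 (0.199). The adhesion receptor gene Adgre5 was at 0.38 (adjusted p = 0.355) and Ctnnb1, which encodes the beta-catenin that binds VE-cadherin, at 0.60 (0.310).

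Genes of monocyte-derived and capsule macrophages gave 1 call among 3 tested in edgeR, where 6.04% of all tested genes passed. It was Ms4a7, which rose from 67.0 ± 5.57 to 211 ± 65.9 CPM (log2 1.66, adjusted p = 0.0178). The other tested genes were Cd207 at 0.19 (adjusted p = 0.763) and Trem2 at 0.275 (0.721). The summed level of the 6 listed genes of this kind was 266 to 432 CPM among controls versus 504 to 643 CPM in Commd10-deficient cells. That sum includes Ms4a7 and, like Vsig4 and Adgre1, was higher in every Commd10-deficient library than in any control. Plac8 was the only tested monocyte gene, at -0.63 (adjusted p = 0.384), and in the Commd10-deficient libraries Ccr2 had 3, 1 and 0 counts and Ly6c2 had 4, 0 and 2. The part of such cells in the levels of Vsig4, Adgre1 and Timd4 was not tested.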

How the data were processed

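Bulk MARS-Seq libraries of sorted Kupffer cells were compared, 4 control and 3 Commd10-deficient. Per the file headers, the authors deposited raw counts per gene and sample, and the table's name states UMI correction. They also deposited normalized values per gene and sample, a signal that equals the raw count divided by 1 factor per library within 0.00924, and which was used for that check alone. Build mm10 and the tools cutadapt, HTSeq and DESeq2 are named by the authors, per the submitters' processing notes. The sources used here give no aligner, version, strand or multi-mapping setting. The table lists 0 mitochondrially encoded genes, and every gene has at least 6 counts in some library.

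Counts were tested with edgeR 4.0.16 in R 4.3.3 (quasi-likelihood F test, TMM factors, robust shrinkage, default expression filter on the genotype groups) with Benjamini-Hochberg adjustment over all 3412 tested genes, first with 2 groups, then with 3 levels. SE is derived from the F statistic. DESeq2 1.42.0, limma-voom (limma 3.58.1), RLE scaling, no filter, single control sets and each library left out were tried. The fits were tested on simulated data. CPM uses library totals times TMM factors. Intervals and floors cover counting error only. Depth ran from 105462 to 4270240 counts. Replicate numbers follow record order and pair nothing. Positions are from GENCODE M21 (GRCm38, the same build as mm10), and promoters from RefSeq (GRCm38.p6). The 10 genes, the other lists and the naming rule were chosen with earlier results of these data known. By that rule all 10 genes, the sort gate genes, called genes and the 4 smallest p-values of each related list are named; ratios, marker genes not called and the sequences shown were chosen after their values were seen.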

Additional observations from a re-analysis of the deposited data

How the results depend on the processing

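No paired analysis was possible because replicate numbers follow record order. Genes called against all controls were 206 of 3412 tested. With no filter they were 514 of 10550, a smaller share, and the median of all genes moved from -0.05 to -0.33. DESeq2 called 372 of 3412 and RLE scaling gave 221 of 3412. Control set 2 alone gave 697 of 2202 and control set 1 alone 576 of 2297. With 1 library left out the number ran from 0 to 276, the highest being out of 2672 tested. The 0 calls among the 10 identity genes became 1 with RLE scaling, 3 with no filter, 2 in DESeq2, 5 with control set 2 alone, 3 with control set 1 alone and 0 to 2 with 1 library left out. For the model with 3 levels the share over all genes was counted in the main fit only, so the numbers that follow have no background beside them. The 3 calls against control set 1 became 5 in both DESeq2 and limma-voom. The 4 calls against control set 2 became 2 in limma-voom and 0 to 5 with 1 library left out, and the 4 calls between the control sets 0 to 5. Against all controls, edgeR called 0 of the tested genes without Commd10-deficient replicate 1 or 2.

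Of 130 log2 fold changes of the 10 genes under alternatives, 106 kept direction and side of the threshold, 19 newly passed and 5 turned sign. Those that turned were Timd4 (-0.40 to 0.022 with 1 library left out, the highest without control replicate 4, and 0.27 with control set 1 alone), Folr2 (0.33) and Cdh5 (0.040) with control set 2 alone, and Cd5l (-0.11) with no filter. Vsig4 stayed between 0.46 and 0.96, Adgre1 between 0.54 and 0.99 and Pcolce2 between -1.45 and -0.83 under every alternative tried, with adjusted p-values of 0.000724 to 0.388, 0.000767 to 0.317 and 0.00231 to 0.227. Depth limits Cdh5 most, with 6 to 28 counts in the 5 shallow libraries.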

Other observations

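Several receptors and carriers related to the identity genes had most of their counts in control set 1 and were close to the counting floor elsewhere. Control set 1 was also the deepest, so these raw counts do not compare levels between libraries. Mertk, an apoptotic cell receptor that acts beside TIM4, had 57 and 33 counts in control set 1, 3 and 2 counts for control set 2 and 1, 0 and 0 in Commd10-deficient cells. Slc46a1, the proton-coupled folate transporter, had 100 and 56, then 6 and 5, then 2, 1 and 1. Folr1, the relative of Folr2, had 19 and 3 in control set 1 and 1 count over the other 5 libraries, so folate receptor transcripts were nearly all of Folr2. Havcr2, a relative of Timd4, had 8 and 3 counts in control set 1 and 0 elsewhere. Among syndecans, Sdc1, Sdc2 and Sdc4 had at most 78 counts in any library, against 7375 to 13537 of Sdc3 in control set 1. Scaled, Sdc4 was at 1.56 ± 1.92 CPM among controls and 19.8 ± 9.06 CPM in Commd10-deficient cells, there from 3, 1 and 3 counts. Sdc1 (11.1 and 5.81 CPM) and Sdc2 (15.8 and 6.23 CPM) went the other way. Fabp4 and Fabp5 had 94 and 65 counts in control replicate 1, where Fabp7 had 1197. None of these relatives was tested, for low counts.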
